A study of Mus musculus with 6 samples.

Results

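The genes described here encode the subunits, activators, inhibitor and assembly chaperones of the proteasome. They were taken from the deposited gene table by symbol, as every row whose name starts with Psm, 1 of the letters a to g and a number, which gave 51 of 23034 genes. The rule used no measured value. Of the 51 genes, 49 encode parts or helpers of the proteasome, while Psmc3ip and Psme3ip1 match by symbol and encode proteins named for binding a subunit.

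The proteasome is the protease that destroys most ubiquitin-tagged proteins in the cytosol and nucleus. Its barrel-shaped 20S core has outer rings of alpha subunits and inner rings of beta subunits, of which only some cut peptide bonds, and the 19S cap recognises tagged proteins, unfolds them with its ATPases and feeds them into the core. In immune cells, and in other cells exposed to interferon gamma, the catalytic subunits Psmb5, Psmb6 and Psmb7 can be replaced in newly built cores by Psmb8, Psmb9 and Psmb10, which makes the immunoproteasome. The PA28 activator, built from Psme1 and Psme2, caps the same core without ATPases, and both are known for shaping the peptides that MHC class I molecules present.

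The libraries came from wild-type mouse bone marrow-derived macrophages, grown with M-CSF at 10 ng/ml and then kept for 24 hours with 20 ng/ml of IL-4, which gives the state called M2. In 3 libraries the cells had then received SA@BATMAN5 for 24 hours, and in 3 Control libraries PBS. The series title speaks of tuftsin clusters directed to Fc gamma receptors, and the labels do not say what SA@BATMAN5 is made of or whether IL-4 stayed in the medium. The labels also do not say whether replicates are separate animals or cultures, so p-values measure only how far these libraries differ, a spread that may be technical.

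Library totals were 36958470, 29739263 and 37212125 counts with SA@BATMAN5 and 46022131, 38740103 and 47018154 counts in Control, so the Control libraries were all deeper. Each library received its group through its column name, in which S-5 was read as SA@BATMAN5 and N as Control. All 10 macrophage markers listed were tested, with summed levels of 23022 to 23181 CPM (counts scaled to a common library total) with SA@BATMAN5 and 16647 to 16863 CPM in Control. Neutrophil markers summed to 119 to 133 CPM with SA@BATMAN5 and 43.0 to 45.4 CPM in Control, with Ly6g, Retnlg and Mpo at 0, and stromal markers to 1077 to 1240 CPM with SA@BATMAN5 and 752 to 936 CPM in Control, with Lum at 0. Of these lists, 7 of 10 macrophage, 3 of 4 tested neutrophil and 5 of 6 tested stromal markers passed the test as higher with SA@BATMAN5. Lymphocyte markers stayed at or under 3.04 CPM with SA@BATMAN5 and 0.598 CPM in Control, dendritic markers at or under 7.13 CPM with SA@BATMAN5 and 4.44 CPM in Control, and mast cell and erythroid markers at or under 0.413 CPM with SA@BATMAN5 and 0.227 CPM in Control. Of the dendritic markers tested, Ccr7 passed as higher (mean 3.27 CPM with SA@BATMAN5 and 0.0894 CPM in Control), and Zbtb46 and Xcr1 did not pass. The only lymphocyte marker tested, Cd79a, was called higher at the threshold (edgeR, adjusted p = 0.0498). Ms4a1 had 2.40 CPM in SA@BATMAN5 replicate 3 and 0 in replicates 1 and 2. Cd3e, Cd3d, Ncr1, Flt3, Siglech, Fcer1a, Hba-a1 and Hbb-bs were at 0. The part of other cells in the results below was not tested, and in bulk RNA more cells of a type and more RNA per cell cannot be told apart.

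Sequences are shown at the starts of 4 genes that rose by over 3-fold (Psme2, Psmb8, Psmb9 and Psme1). A constitutive subunit is shown too, and each stretch has a motif match marked. Psme2b and Psmd10 also rose by over 3-fold and are not shown. The marked motif was picked gene by gene, so the stretches do not compare motifs between genes. The RefSeq promoter table (build GRCm38.p6, 250 bases before to 50 after each start) held 47 windows for 43 of the 51 genes. Psme2, the gene with the largest fold change among all members, is shown from 180 to 13 bases before its start, on the minus strand at chr14:55591114-55591281, with a kappaB match (GGG, any 5 bases, CC) in capitals. Every motif was read on both strands, and the capitals of Psme2 match on both.

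Psme2: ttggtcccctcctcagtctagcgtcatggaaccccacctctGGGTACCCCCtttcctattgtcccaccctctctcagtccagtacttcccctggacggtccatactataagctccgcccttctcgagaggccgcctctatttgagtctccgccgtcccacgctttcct

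For Psmb8, Psmb9 and Psme1, whose further annotated transcripts run through the window, 30 bases around a match are shown. Psmb8 (plus strand, chr17:34198088-34198117) carried a GAS match, TTCNNNGAA, upstream of its start. Psmb9 (minus strand, chr17:34187366-34187395) carried matches to the kappaB letters, of which the upstream one nearest to its start is shown. The capitals of Psmb9 also stood, on the opposite strand, in the windows of Psma1, Psme4 and Psmg4. The kappaB letters leave 5 bases open and stood in 50.8% of all windows, so a match alone does not make a kappaB site. Psme1 (plus strand, chr14:55578493-55578522) carried an ISRE match (GAAA, any 2 bases, GAAA) on the opposite strand, so its capitals read in reverse complement, and this match lies after the start, at bases 10 to 19. Psmb5 (minus strand, chr14:54618023-54618095), the constitutive counterpart of Psmb8, carried an ARE core, TGACNNNGC, upstream of its start. Capitals mark the match in each.

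Psmb8: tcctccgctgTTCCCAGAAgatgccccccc

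Psmb9: cgcgatgatgGGGCGGGGCCtcagtctgca

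Psme1: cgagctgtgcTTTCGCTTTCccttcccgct

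Psmb5: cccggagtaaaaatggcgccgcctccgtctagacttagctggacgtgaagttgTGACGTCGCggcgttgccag

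The ISRE letters stood in 5 of 47 member windows (10.6%), those of Psmd4, Psmd9, Psmb3, Psmg4 and Psme1, against 3.44% of all 32851 windows. The GAS letters stood in 3 member windows (6.38%) against 8.30% of all, the kappaB letters in 27 (57.4%) against 50.8%, the ARE core in 6 (12.8%) against 12.4%, and the NF-Y letters CCAAT in 16 (34.0%) against 37.4%. Among the 7 windows of immunoproteasome and PA28 genes, 5 held kappaB, 1 held ISRE, 1 held GAS, 1 held CCAAT and 0 held the ARE core. Among the 27 windows of constitutive 20S and 19S subunits the same motifs stood in 16, 2, 1, 10 and 4. The 5 kappaB windows of the immunoproteasome and PA28 genes belong to Psme1, Psme2, Psme2b and Psmb9, and Psme2 gave more than 1 of them. A match is a description of the letters, and 0 matches says only that these letters are not in these windows. Psmb9 and Tap1, which encodes a subunit of the class I peptide transporter, start 226 bases apart on opposite strands, and their windows share 275 bases.

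Across the proteasome the level of mRNA was higher with SA@BATMAN5 than in Control. Of the 51 genes, 50 passed the filter on low counts, and 40 of them rose, 3 fell (Psma8, Psmd8 and Psmc3ip) and 7 did not pass the test (Psmd9, Psme3, Psmf1 and Psmg1 to Psmg4). The test was edgeR's quasi-likelihood test with Benjamini-Hochberg adjustment over all 13474 tested genes, at an adjusted p of 0.05. Over all tested genes 29.5% were called higher and 28.7% lower, a split of 3980 to 3866 genes. The median log2 fold change of the tested members was 0.36, beside -0.0041 over all tested genes. With upper-quartile scaling the split over all genes was 3239 higher and 4791 lower, with library totals alone 3291 and 4694, and under both the members' counts were 36 higher and 3 lower.

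The groups did not overlap in CPM for 44 of the 51 genes, 41 with SA@BATMAN5 above Control and 3 below. Over all tested genes the groups did not overlap in 32.1% with SA@BATMAN5 higher and in 32.0% with it lower. Summed over the 51 genes, SA@BATMAN5 libraries held 6567 to 6657 CPM and Control libraries 4354 to 4407 CPM. As a share of all counts this was 0.641% to 0.648% with SA@BATMAN5 and 0.443% to 0.454% in Control.

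**Figure D1:**
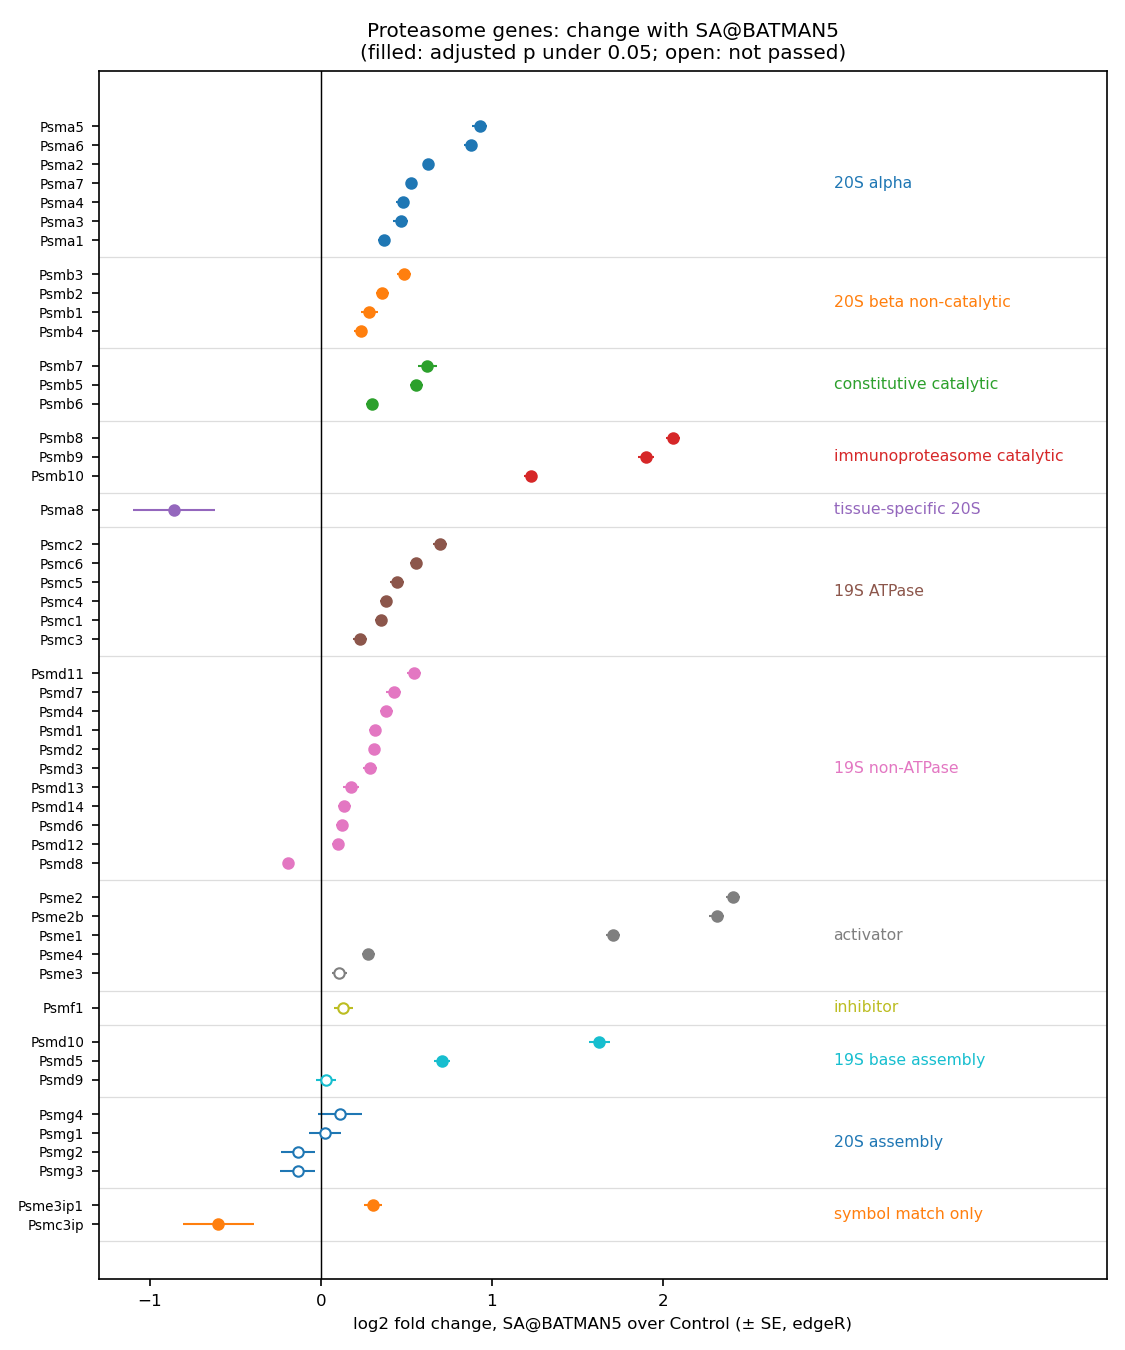
The plot gives the log2 fold change of SA@BATMAN5 over Control on the horizontal axis for the 50 tested genes, grouped by subclass, with bars for ± SE from edgeR. Filled points passed an adjusted p of 0.05 and open points did not. The immunoproteasome catalytic genes (1.23 to 2.06), Psme1, Psme2, Psme2b and Psmd10 lie above 1, the constitutive 20S and 19S genes lie between -0.19 and 0.93, and the 20S assembly genes lie around 0.

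The catalytic subunits of the immunoproteasome rose most within the 20S core. All 3 rose by at least 2-fold, a size that 9.17% of all tested genes reached in that direction. Psmb8, which takes the place of Psmb5 and carries chymotrypsin-like activity, had 346, 329 and 327 CPM in the SA@BATMAN5 libraries and 77.6, 85.3 and 77.3 CPM in the Control libraries. The SA@BATMAN5 libraries were thus all above Control, with no overlap (log2 fold change 2.06 ± 0.04 SE, adjusted p = 2.7e-14, edgeR). Psmb9, which replaces Psmb6, had 88.9, 83.5 and 84.9 CPM with SA@BATMAN5 and 23.2, 23.5 and 22.2 CPM in Control. It rose 3.74-fold, again with no overlap (log2 fold change 1.90 ± 0.05). Psmb10, which replaces Psmb7 and carries trypsin-like activity, had 160, 155 and 153 CPM with SA@BATMAN5 and 67.0, 66.5 and 66.3 CPM in Control. Its rise was the smallest of the 3, at 2.34-fold (log2 fold change 1.23 ± 0.04). In the GENCODE vM21 annotation, 5.79% of the exon bases of Psmb9 overlap exons of Tap1 and 14.7% of those of Psmb8 overlap the antisense gene Gm20496, both on the opposite strand. Since the strand setting of the counting is not given in the sources used here, reads in such overlaps cannot be assigned to a strand. Overlaps were not limited to these genes. Exons of Psmb5 overlap Mir686 on the same strand (12.1%), and those of Psmb7 overlap Nek6 on the opposite strand (11.8%). Further opposite-strand overlaps included those of Psmd9 (25.5%), Psmc3ip (21.2%) and Psmd13 (10.1%). Tap1 rose too, with 257, 240 and 244 CPM with SA@BATMAN5 and 39.9, 39.6 and 39.3 CPM in Control.

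The constitutive catalytic subunits did not fall; all 3 rose, by less. Psmb5 had 159, 161 and 168 CPM with SA@BATMAN5 and 108, 113 and 110 CPM in Control, a log2 fold change of 0.56 ± 0.04. Psmb6, the caspase-like subunit, had 173, 175 and 185 CPM with SA@BATMAN5 and 144, 143 and 147 CPM in Control, a log2 fold change of 0.30 ± 0.04. Psmb7 had 131, 123 and 120 CPM with SA@BATMAN5 and 86.9, 74.0 and 81.3 CPM in Control, a log2 fold change of 0.62 ± 0.05. In each of the 3 genes every SA@BATMAN5 library lay above every Control library. Over the aligned stretches of their transcripts, the immunoproteasome genes and their counterparts are 63.7% to 68.8% identical.

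**Figure D2:**
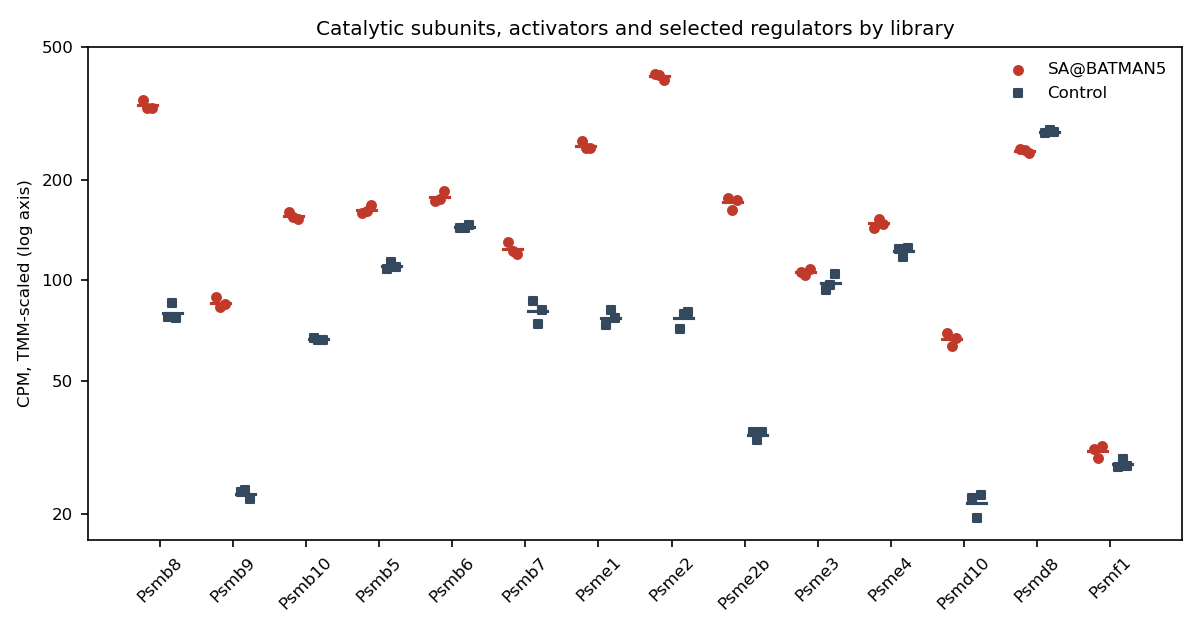
Each point is 1 library, with CPM on a log vertical axis and horizontal bars at the mean of 3 libraries, for catalytic subunits, activators and selected regulators. SA@BATMAN5 libraries (circles) stand to the left of Control libraries (squares). Psmb8, Psmb9, Psmb10, Psme1, Psme2, Psme2b and Psmd10 have the widest gaps between groups, Psmd8 is lower with SA@BATMAN5, and the groups overlap in Psme3.

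Within a library, the balance of each immunoproteasome subunit against the subunit it replaces was compared per transcript length, from the authors' FPKM, which divides fragments by transcript length and library size. The Psmb8 to Psmb5 ratio was 1.20, 1.13 and 1.07 in the SA@BATMAN5 libraries and 0.387 to 0.415 in Control. By FPKM, Psmb8 was thus the higher of the pair in every SA@BATMAN5 library and the lower in every Control library. The Psmb10 to Psmb7 ratio likewise lay on opposite sides of 1, at 1.09 to 1.13 with SA@BATMAN5 and 0.687 to 0.796 in Control. The Psmb9 to Psmb6 ratio stayed under 1 in both groups, at 0.286 to 0.316 with SA@BATMAN5 and 0.0972 to 0.101 in Control. The differences of the log2 ratios, SA@BATMAN5 minus Control, were 1.51 for Psmb8 to Psmb5, 1.58 for Psmb9 to Psmb6 and 0.60 for Psmb10 to Psmb7. With 3 libraries a group, the two-sided exact permutation test gave p = 0.1 for each of the 3 pairs, which is the smallest it can give, and 0.1 after adjustment over them. The groups did not overlap in any of the 3 pairs. The 3 immunoproteasome genes made up 43.3% ± 1.01 of the summed FPKM of the 6 catalytic genes with SA@BATMAN5 and 24.0% ± 0.596 in Control (SD, n = 3 each).

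**Figure D3:**
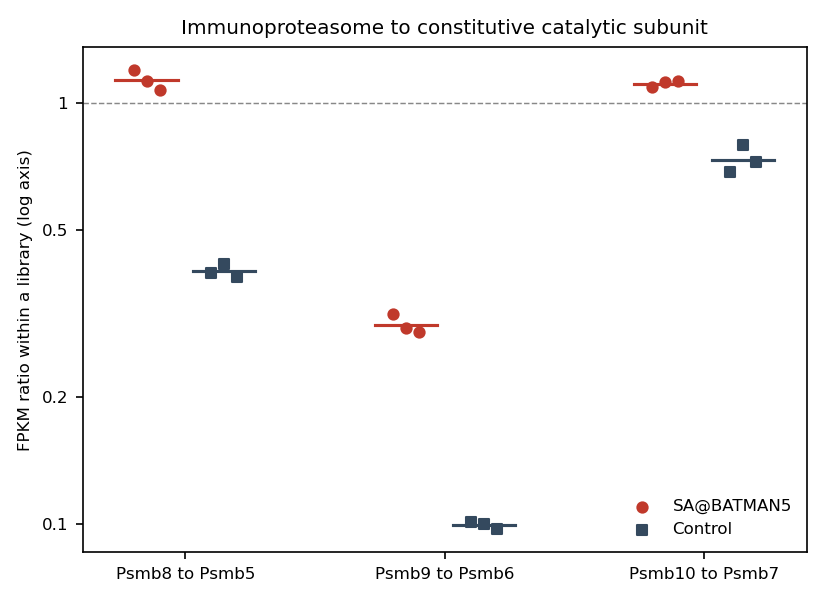
For each of 3 pairs, the FPKM of the immunoproteasome subunit over that of the constitutive subunit it replaces is plotted per library on a log vertical axis, with bars at the geometric mean and a dashed line at a ratio of 1. SA@BATMAN5 libraries (circles) cross the line for Psmb8 to Psmb5 and Psmb10 to Psmb7 and stay under it for Psmb9 to Psmb6, and all Control libraries (squares) lie under it.

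The other subunits of the 20S core moved together. All 7 ubiquitous alpha subunits rose. Their median log2 fold change was 0.53. Psma5, the most raised, had 132, 131 and 139 CPM with SA@BATMAN5 and 72.7, 71.8 and 66.5 CPM in Control (log2 fold change 0.93 ± 0.04). Psma1, the least raised, had 166, 163 and 167 CPM with SA@BATMAN5 and 127, 125 and 132 CPM in Control (0.37 ± 0.03). Between them in log2 fold change lay Psma6 (0.88), Psma2 (0.63), Psma7 (0.53), Psma4 (0.48) and Psma3 (0.47). The 4 beta subunits without catalytic activity rose as well, with a median of 0.32. Psmb3 had 96.5, 93.8 and 98.1 CPM with SA@BATMAN5 and 65.7, 71.3 and 69.1 CPM in Control (log2 fold change 0.49 ± 0.04), and Psmb4 had 154, 160 and 152 CPM with SA@BATMAN5 and 132, 130 and 136 CPM in Control (0.23 ± 0.04). Psmb2 and Psmb1 lay between them in log2 fold change, at 0.36 and 0.28. Over the 14 constitutive subunits of the core, catalytic ones included, 14 rose with a median of 0.48, against 1.90 for the 3 immunoproteasome genes. In no constitutive gene did the fold reach 2, the highest being 1.91-fold for Psma5.

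The core subunits of other tissues had few counts. Psmb11, the catalytic subunit of thymic epithelium, had 2 counts in Control replicate 3 and 0 in the other 5 libraries, where a count of 0 allows up to 0.0640 to 0.103 CPM by counting error alone. Psma8, the alpha subunit of the testis, had 1.53, 1.38 and 1.13 CPM with SA@BATMAN5 and 3.07, 2.08 and 2.17 CPM in Control. It fell by 0.86 ± 0.24 in log2 (edgeR, adjusted p = 0.0074), a call that was lost without Control replicate 1 (adjusted p = 0.053). Its transcript is 76.5% identical to that of Psma7, which had 172 to 176 CPM with SA@BATMAN5 and 120 to 122 CPM in Control.

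In the 19S cap, the ring of 6 ATPases that unfolds substrates rose in full. The median log2 fold change was 0.41. Psmc2 had 152, 149 and 146 CPM with SA@BATMAN5 and 97.5, 87.2 and 90.8 CPM in Control (log2 fold change 0.70 ± 0.04), and Psmc3 had 166, 160 and 159 CPM with SA@BATMAN5 and 131, 142 and 141 CPM in Control (0.23 ± 0.04). Psmc6 (0.55), Psmc5 (0.44), Psmc4 (0.38) and Psmc1 (0.35) lay between them in log2 fold change. Of the 11 non-ATPase subunits, 10 rose and 1 fell, with a median of 0.29. Psmd11, a lid subunit that contacts both the ATPases and the core, had 112, 110 and 119 CPM with SA@BATMAN5 and 79.8, 77.1 and 76.4 CPM in Control (log2 fold change 0.55 ± 0.04). Psmd7 (0.43), Psmd4, a ubiquitin receptor (0.38), the scaffold subunits Psmd1 (0.31) and Psmd2 (0.31) and Psmd3 (0.29) followed in log2 fold change.

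The smallest rises of the cap in log2 fold change were in Psmd13 (0.18), Psmd14, which removes ubiquitin chains from substrates (0.14), Psmd6 (0.12) and Psmd12 (0.10). These 4 calls were lost with library totals or upper-quartile scaling, under which the non-ATPase subunits counted 6 higher and 1 lower. The call of Psmd6 was also lost without Control replicate 3 (adjusted p = 0.052), and that of Psmd12 without any single library except Control replicate 1 (adjusted p 0.051 to 0.11). Psmd8, a lid subunit, went the other way, with 247, 246 and 241 CPM with SA@BATMAN5 and 276, 283 and 279 CPM in Control. It fell by 0.19 ± 0.03 on the log2 scale (adjusted p = 0.000102), with no overlap. Split by position, a split made after the values were seen, the 8 lid subunits had a median of 0.16 and the 9 base subunits (6 ATPases, Psmd1, Psmd2 and Psmd4) a median of 0.38.

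The activators divided by type. The genes of PA28 alpha and beta, the interferon-inducible cap of the cytosol, all rose, and Psme2 had the largest fold change of the 50 tested members. Psme2 (PA28 beta) had 416, 413 and 399 CPM with SA@BATMAN5 and 71.6, 79.1 and 80.2 CPM in Control, a rise of 5.32-fold (log2 fold change 2.41 ± 0.04, adjusted p = 5.4e-15, edgeR). Psme1 (PA28 alpha) had 261, 249 and 249 CPM with SA@BATMAN5 and 73.5, 81.4 and 77.3 CPM in Control, a rise of 3.27-fold (log2 fold change 1.71 ± 0.04). Psme2b, a copy of Psme2, had 177, 163 and 175 CPM with SA@BATMAN5 and 35.0, 33.2 and 35.1 CPM in Control (log2 fold change 2.32 ± 0.04). Its transcript is 99.4% identical to that of Psme2 over 794 aligned bases, so how reads were divided between them is uncertain. Their summed level was 593, 575 and 573 CPM with SA@BATMAN5 and 107, 112 and 115 CPM in Control, a ratio of means of 5.21. The sum does not depend on that division, but shared reads that were dropped or counted repeatedly would change it.

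Of the nuclear activators, Psme4 rose and Psme3 lay at the threshold. Psme4, which encodes PA200, had 144, 153 and 148 CPM with SA@BATMAN5 and 124, 117 and 125 CPM in Control, a log2 fold change of 0.28 ± 0.04. Psme3, which encodes PA28 gamma, had 106, 104 and 108 CPM with SA@BATMAN5 and 93.4, 96.8 and 105 CPM in Control. Its groups overlapped and its log2 fold change was 0.11 ± 0.04 (adjusted p = 0.052, edgeR), so it did not pass. It was called higher without Control replicate 3 at 0.15 (adjusted p = 0.012), with DESeq2 size factors (0.048), with the DESeq2 Wald test (0.048) and with a filter of 1 CPM (0.046), and not with library totals (0.55) or upper-quartile scaling (0.63). Psmf1, which encodes the inhibitor PI31, had 31.2, 29.4 and 32.0 CPM with SA@BATMAN5 and 27.6, 29.2 and 27.8 CPM in Control. It did not pass the test, although every SA@BATMAN5 library lay above every Control library (log2 fold change 0.13 ± 0.06, adjusted p = 0.063), and it was called without SA@BATMAN5 replicate 2 (adjusted p = 0.047).

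The chaperones that build the particle did not move as a class. Psmd10 (gankyrin), which escorts the ATPase Psmc4 during assembly of the 19S base, had 69.5, 63.6 and 67.1 CPM with SA@BATMAN5 and 22.4, 19.5 and 22.8 CPM in Control, a rise of 3.10-fold (log2 fold change 1.63 ± 0.06). Psmd5, another chaperone of the base, had 62.9, 69.0 and 65.4 CPM with SA@BATMAN5 and 40.1, 40.3 and 40.3 CPM in Control, a rise of 0.71 ± 0.05 on the log2 scale. Psmd9, the remaining one, had 25.1, 25.4 and 24.8 CPM with SA@BATMAN5 and 23.7, 24.9 and 25.3 CPM in Control, which overlapped (log2 fold change 0.03 ± 0.06, adjusted p = 0.70). Psmd10 was the only gene outside the immunoproteasome catalytic and PA28 alpha and beta genes to reach 2-fold.

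Of the 4 chaperones of the 20S core, Psmg1 to Psmg4, 0 passed the test in either direction with edgeR, 0 reached an unadjusted p under 0.05 and 0 passed with DESeq2, and the groups overlapped in each. Psmg4 had 8.56, 7.61 and 6.93 CPM with SA@BATMAN5 and 7.47, 7.87 and 6.11 CPM in Control (log2 fold change 0.11 ± 0.13), and Psmg3 had 8.64, 9.19 and 8.59 CPM with SA@BATMAN5 and 8.73, 10.5 and 9.81 CPM in Control (-0.14 ± 0.10). Psmg1 and Psmg2 had log2 fold changes of 0.02 ± 0.09 and -0.13 ± 0.10. Their levels were 6.11 to 11.9 CPM over all libraries, with wider errors than those of the ubiquitous subunits. Pomp, which encodes the chaperone that completes the core and whose symbol lies outside the rule, rose with no overlap, having 204, 201 and 204 CPM with SA@BATMAN5 and 132, 137 and 134 CPM in Control (log2 fold change 0.60 ± 0.03).

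Per transcript length, the order of levels changed between the groups. Among the 39 genes of the core, cap and activators, the core genes of other tissues left out, Psme2 stood first with SA@BATMAN5 at 344 ± 11.0 FPKM, Psme1 next at 185 ± 4.59 FPKM and Psmb6 after it at 180 ± 5.76 FPKM (SD, n = 3), and Psme1 and Psmb6 did not differ beyond their spread. In Control, Psmd8 had the highest level, at 169 ± 2.31 FPKM, followed by Psmb6 at 154 ± 1.78 FPKM, while Psme2 and Psme1 had 68.1 ± 3.93 and 59.3 ± 3.02 FPKM. Psmd8 had 138 ± 6.85 FPKM with SA@BATMAN5. Psmb9 had 53.7 ± 1.25 FPKM with SA@BATMAN5 and 15.3 ± 0.161 FPKM in Control, where it was the lowest of the 39. The sum of Psme1 and Psme2, with Psme2b left out, relative to the summed alpha subunits was 0.728 to 0.767 with SA@BATMAN5 and 0.243 to 0.275 in Control. Psme2b had 166 ± 5.32 FPKM with SA@BATMAN5 and 35.0 ± 1.10 FPKM in Control. How reads were divided between Psme2 and Psme2b is uncertain, so the level and rank of Psme2 and this sum depend on that division. The summed alpha subunits held 701 to 707 FPKM with SA@BATMAN5 and 482 to 494 FPKM in Control, and the summed non-ATPase subunits 696 to 726 FPKM with SA@BATMAN5 and 662 to 670 FPKM in Control. Within the alpha subunits, which stand in equal number in each ring, levels still spread from 34.8 FPKM (Psma3) to 153 FPKM (Psma7) with SA@BATMAN5 and from 27.1 FPKM to 112 FPKM in Control.

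**Figure D4:**
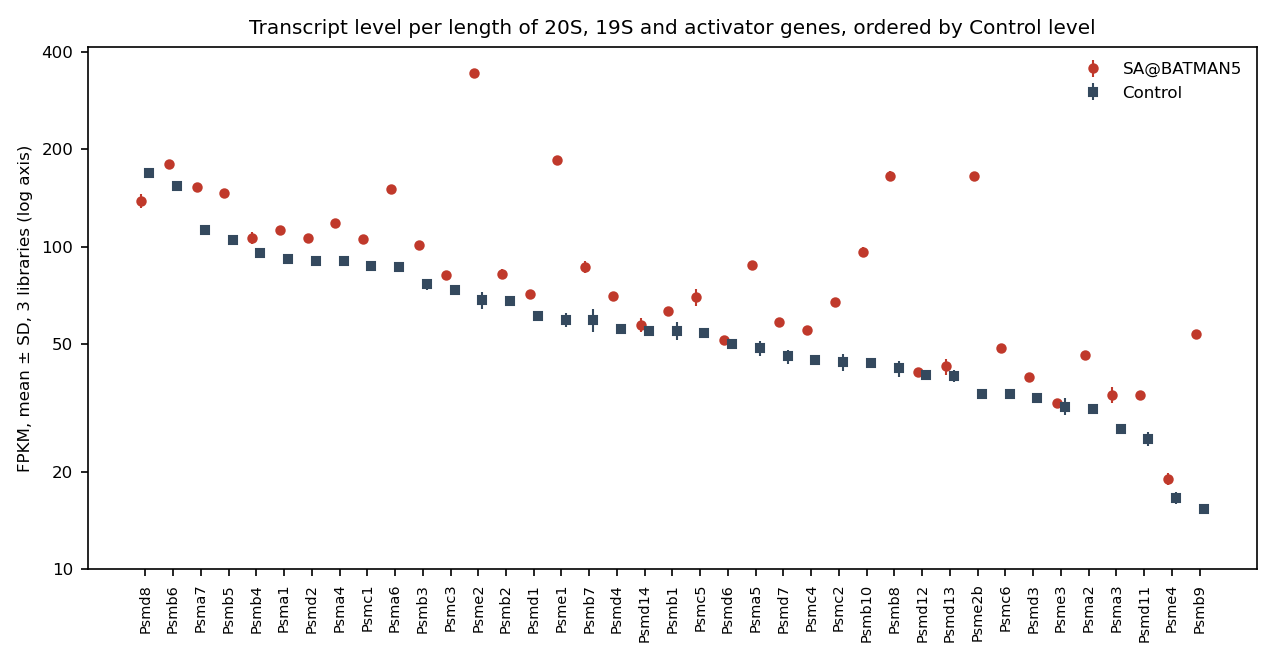
The plot gives the mean FPKM ± SD of 3 libraries a group on a log vertical axis for genes of the 20S core, the 19S cap and the activators, ordered by the Control level, with SA@BATMAN5 as circles and Control as squares. Psme2, Psme1, Psmb8, Psme2b, Psmb10 and Psmb9 leave the order most, and Psmd8 is the only plotted gene whose SA@BATMAN5 mean lies under that of Control.

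The genes that match by symbol but are no proteasome parts moved apart from each other. Psme3ip1, whose product binds PA28 gamma, rose by 0.31 ± 0.05 on the log2 scale. Psmc3ip, which encodes a partner of the recombinases of meiosis, had 1.97, 1.58 and 1.63 CPM with SA@BATMAN5 and 2.50, 3.01 and 2.40 CPM in Control. It fell by 0.60 ± 0.21 in log2 (edgeR, adjusted p = 0.023), and the call was lost without SA@BATMAN5 replicate 2, SA@BATMAN5 replicate 3 or Control replicate 2 (adjusted p 0.062, 0.063 and 0.097).

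Partners of the proteasome without a Psm symbol were read from a list of 32 genes, of which 31 were tested. Of these, 17 rose, 9 fell and 5 did not pass (median 0.20 on the log2 scale), beside 29.5% higher and 28.7% lower over all tested genes. The share that fell was thus near that of all genes. With library totals or upper-quartile scaling 15 rose and 10 fell. The largest rises were in Ecpas, whose product binds the 26S particle, and Nfe2l1, the transcription factor that drives proteasome genes when proteasome activity is short. Ecpas had 218, 222 and 220 CPM with SA@BATMAN5 and 112, 102 and 107 CPM in Control (log2 fold change 1.04 ± 0.04). Nfe2l1 had 355, 359 and 338 CPM with SA@BATMAN5 and 214, 218 and 220 CPM in Control (log2 fold change 0.69 ± 0.03). Among the genes that fell, Zfand5, which encodes a ubiquitin-binding zinc finger protein, had 171, 174 and 175 CPM with SA@BATMAN5 and 228, 212 and 221 CPM in Control (log2 fold change -0.35 ± 0.04). Chosen after their values were seen, the deubiquitinases of the cap, Usp14 (log2 fold change -0.21) and Uchl5 (-0.30), fell, while the ubiquitin receptor Adrm1 (0.25) and the small cap subunit Sem1 (0.32) rose.

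Of 14 genes listed for the supply of peptides to MHC class I, 12 rose, 1 fell (Lap3) and 1 did not pass (Thop1), beside 29.5% higher and 28.7% lower over all tested genes. Their median log2 fold change was 1.45.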

How the data were processed

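RNA was sequenced from 6 libraries, 3 SA@BATMAN5 and 3 Control. Each was made from 1.3 ug of RNA with a SMARTer kit, per the labels' protocols. The deposited table holds whole-number counts per gene and the authors' FPKM, per the file headers. Among tools, the submitters' processing notes list StringTie 2.1.2, HISAT2 2.2.0 and DESeq2 1.26.0, with the build GRCm39. For the counting tool, its strand setting and the annotation, the answer is not given in the sources used here. The table has no coordinates. Sequences, overlaps and transcript identities come from GRCm38 (RefSeq, GENCODE vM21), another build than the authors'.

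Group and replicate number come from the sample titles. Columns carry N or S-5, and the match to Control and SA@BATMAN5 is a reading of those names. The filter was edgeR's filterByExpr (counts of at least 10, total of at least 15), which left 13474 genes. Counts were normalised by TMM and tested by edgeR's quasi-likelihood test (version 4.0.16, R 4.3.3), two-sided and with no covariate, and p-values were adjusted over all of them at 0.05. The biological coefficient of variation was 6.91%. CPM uses TMM-scaled totals, while FPKM is as deposited, without TMM, and was used within libraries and for levels. Limits from 0 counts use 3 counts and cover counting error only. DESeq2 1.42.0, other scalings, other filters, thinned counts, a replicate block and leaving out each library were alternatives. Figures were drawn with matplotlib 3.10.9.

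The subunit classes, lists and named genes were chosen with earlier results of these data known. Values by library are given for the catalytic subunits, the activators, Psmf1 and Pomp, for the highest and lowest fold change of each other class of at least 3 tested genes, for members that moved against their class, and for the 2 largest rises and falls of the partner list, apart from an item that is not reported here. The tests were checked on simulated counts.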

Additional observations from a re-analysis of the deposited data

How the results depend on the processing

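Of the 50 tested genes, 40 kept their direction and their side of the threshold in all 14 settings. The counts of members were 41 higher and 3 lower with DESeq2 size factors, the DESeq2 Wald test or a filter of 1 CPM, 39 and 3 with no filter, 40 and 3 with thinned counts, and 36 and 3 with library totals or upper-quartile scaling. Leaving out each library gave 39 to 40 higher and 2 to 3 lower, with a median log2 fold change of 0.35 to 0.36. That median, 0.36 as reported, was 0.29 with library totals, 0.28 with upper-quartile scaling and 0.38 with counts thinned to the shallowest library. A further demand of at least 1.5-fold left 13 members higher. The fold change of Psmd9, near 0 as reported, was -0.046 with library totals, -0.053 with upper-quartile scaling and -0.0037 to 0.044 when each library was left out, and that of Psmg1 was -0.051, -0.058 and -0.049 to 0.070 under the same changes. The difference in immunoproteasome share was 19.3 percentage points from FPKM and 21.8 from CPM without length. The cause of these shifts was not tested. The deviations of same-numbered libraries from their group means had small correlations (0.038, -0.0071 and 0.035). Those of differently numbered libraries were -0.061 to 0.026. Such values from 3 libraries a group cannot settle whether the numbers pair the samples. With a replicate block 40 members were higher and 3 lower, Psmd12 losing its call (adjusted p = 0.050) and Psme3 gaining one (0.038). Depth limits Psma8, Psmb11, Psmc3ip and the Psmg genes most.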
